A study of Mus musculus and Homo sapiens with 22 samples.

Results

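The transcripts described here were those of at least 200 nt and under 350 nt in 12 files of RNA structure probing, chosen by the length that each file lists and by no measured value. They numbered 1327 of 26879 transcripts in the human embryonic kidney line HEK293 and 588 of 17092 in mouse embryonic stem (mES) cells of the V6.5 line. By length, 176 HEK293 members had under 250 nt, 639 had 250 to under 300 nt and 512 had 300 nt or more, and the mES members numbered 117, 166 and 305 in these classes. Many were listed in few files: 562 HEK293 members were in 1 file and 161 in all 6, while 138 mES members were in 1 file and 62 in all 6. Structure was compared for members with at least 80 nucleotides scored in both files of a comparison, a number reached in all 6 files by 49 HEK293 and 43 mES members.

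Many noncoding RNAs of this size are the RNA part of a protein complex. 7SL is the scaffold of the signal recognition particle, which brings ribosomes that make secreted proteins to the endoplasmic reticulum. 7SK holds the elongation factor P-TEFb inactive, the RNase MRP and P RNAs take part in cleaving ribosomal and transfer RNA precursors, and the U3 RNA guides early cleavages of ribosomal RNA in the nucleolus. Short mRNA isoforms and processed fragments of longer genes share the same lengths.

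In icSHAPE the reagent NAI-N3 marks nucleotides whose backbone is flexible, mostly unpaired ones. Scores run from 0 to 1 and are higher at nucleotides that reacted more. The 6 groups of each cell line were chromatin, nucleoplasm and cytoplasm, each probed in vivo and in vitro. For in vivo probing, living cells received the reagent for 5 min at 37 °C and were then fractionated. For in vitro probing, RNA was purified from the fractions, denatured at 95 °C for 1 min, refolded in a buffer of HEPES (100 mM), MgCl2 (6 mM) and NaCl (100 mM), and given the reagent at the same temperature and for the same time. The solvent (DMSO) sample of a compartment entered both of its score files, per the series' design text, so the in vivo and in vitro comparisons share control samples and are set side by side only.

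Each group held 1 file, so no difference below has a replicate check and no test was run. The labels state a depth of about 200 M reads (M, 1e6) per replicate, and the sources used here do not say whether replicates were combined. Intervals are exact (Clopper-Pearson) 95% intervals, which cover the counting of transcripts only and treat related transcripts as independent. HEK293 and mES libraries differed in rRNA removal kit and sequencer (HiSeq 2500 and HiSeq 4000), so cell line and batch cannot be told apart, and the cell lines are described apart. The files listed from 3247 to 19295 transcripts, of which 390 to 800 were members in HEK293 and 132 to 447 in mES cells. Each list stops at a lowest abundance, between 1.37 and 8.44 over the 12 files. A member absent from a list is therefore below that level or was not listed for another reason.

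None of the identifiers was paired with a gene name in the files, and the reference tables held 0 of them, so 7SK, 7SL, RNase MRP and P RNAs could not be located by name and no role is given to any transcript. In RefSeq (GRCm38.p6), mouse Rn7sk has 332 nt, Rn7s1 and Rn7s2 just under 300 nt, Rmrp 275 nt, Rpph1 325 nt, Rnu3a 212 nt and Rnu3b1 215 nt, so RNAs of these kinds lie within the range. A length alone does not identify a transcript. No sequence is printed for the same reason. The fractions' markers could not be looked up either, so the labelled compartments were not checked against genes.

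Members were a small share of each list, and in mES cells their share of the summed abundance was larger than their share of the transcripts. They made up 10.3%, 7.40% and 9.91% of the transcripts listed in the HEK293 chromatin, nucleoplasm and cytoplasm files in vivo, and 7.27%, 5.75% and 6.91% of the summed abundance. In the in vitro files they were 6.76%, 4.15% and 5.10% of the transcripts and 3.66%, 7.11% and 7.19% of the abundance. The HEK293 shares of abundance were thus above the shares of transcripts only in the nucleoplasm and cytoplasm in vitro. In mES cells, members were 2.50%, 3.09% and 4.23% of transcripts in vivo, with 17.7%, 9.58% and 8.05% of the abundance. In vitro they were 4.07%, 3.17% and 4.60% of mES transcripts, with 19.7%, 10.5% and 7.70% of the abundance, so in all 6 mES files the share of abundance was the larger.

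A few members were very abundant. ENST00000490232 (300 nt) had the highest median abundance of the HEK293 members, 14352 over the 6 files. Its in vivo abundance was 17614 for chromatin, 8602 for nucleoplasm and 30999 for cytoplasm, and 1773, 11090.0 and 39163 in vitro. It was most abundant in the cytoplasm with either probing, and chromatin was second in vivo and last in vitro. ENST00000365328 (331 nt) had 6876, 13046 and 18156 in chromatin, nucleoplasm and cytoplasm in vivo, and 3851, 10953 and 13883 in vitro. Its order was the same with both kinds of probing, lowest in chromatin and highest in cytoplasm. ENST00000602361 (268 nt) had 19725, 2648 and 3855 in vivo, and 15810.1, 3890 and 4295 in vitro, and was the HEK293 member with the highest value in both chromatin files. ENST00000610674 (just under 300 nt) had 5400, 3215 and 12194 in vivo, against 730.7, 4438 and 13854 in vitro, the same order of compartments as ENST00000490232.

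The other 4 named HEK293 members were less abundant. ENST00000463397 (275 nt) had 4160, 1244 and 4303 in vivo and 223, 1388 and 4561 in vitro. ENST00000471086 (295 nt) had 2771, 1044 and 4008 in vivo and 234, 1348 and 4194 in vitro. For both, the chromatin value in vitro was the lowest of the 6. ENST00000365188 (283 nt) had 1080, 2025 and 2309 in vivo and 748, 2048 and 2360 in vitro. ENST00000363618 (332 nt) had 565, 1183 and 1175 in vivo and 413, 1139 and 1634 in vitro. Both of these were lowest in chromatin with either probing.

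In mES cells the most abundant members differed in which fraction gave the highest value. ENSMUST00000083936 (214 nt) had an in vivo abundance of 51637 for chromatin, 8139 for nucleoplasm and 436 for cytoplasm, and 71764, 9710 and 222 in vitro. ENSMUST00000083419 (205 nt) had 4833, 556 and 50.4 in vivo and 5538, 712 and 36.9 in vitro. These 2 members had the same order in both kinds of probing, with the highest value in chromatin and the lowest in cytoplasm. ENSMUST00000174924 (300 nt) had 2642, 9107 and 7198 in vivo and 2019, 11406 and 6251 in vitro, so it was lowest in chromatin. ENSMUST00000083103 (331 nt) had 25155, 7958 and 5326 in vivo, against 3974, 7170 and 5746 in vitro. Chromatin was its highest fraction in vivo and its lowest in vitro. ENSMUST00000157463 (271 nt) had 8116, 8747 and 2681 in vivo and 9031, 11152 and 1016 in vitro, lowest in cytoplasm in both.

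The remaining named mES members were higher in the cytoplasm than in chromatin. ENSMUST00000175096 (319 nt) had 3081, 1302 and 4838 in vivo and 831, 875 and 2229 in vitro. ENSMUST00000175064 (290 nt) had 351, 1395 and 1061 in vivo and 265, 1683 and 925 in vitro. ENSMUST00000082407 (204 nt) had 302, 797 and 1422 in vivo and 179, 374 and 794 in vitro. ENSMUST00000175064 was highest in nucleoplasm, and the other 2 were highest in cytoplasm.

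**Figure D1:**
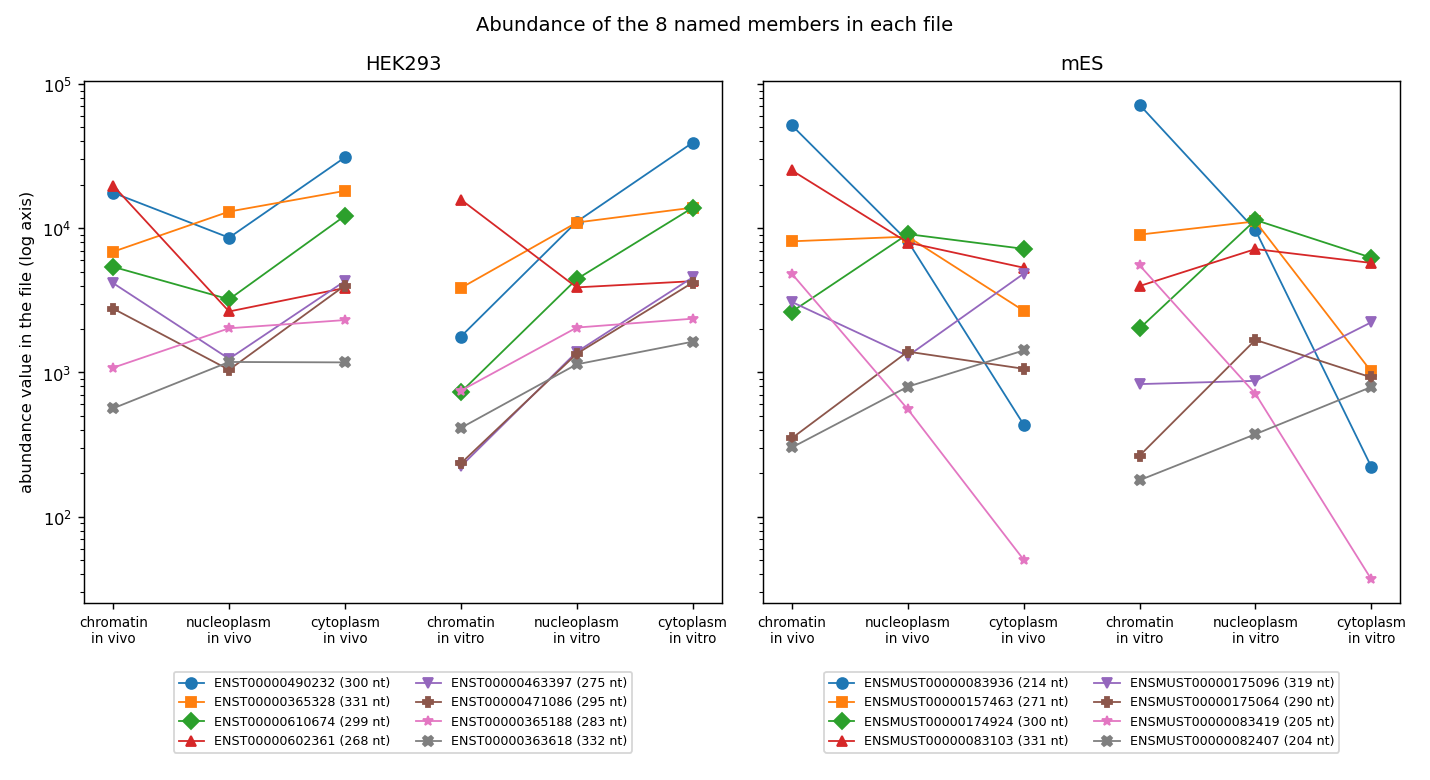
Abundance (log axis, the files' own value) of the 8 named members of each cell line in the chromatin, nucleoplasm and cytoplasm files, in vivo left of in vitro, with 1 point per file. ENSMUST00000083936 lies at 51637 in chromatin and 436 in cytoplasm in vivo, while ENST00000490232 is highest in the cytoplasm in both kinds of probing.

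Some members had an abundance profile over the files much like these. Over the 160 other HEK293 members listed in all 6 files, 31 had a Pearson r of at least 0.95 with ENST00000490232 in abundance, led by ENST00000635274 (300 nt), and 15 had one with ENST00000365328, led by ENST00000603504 (247 nt). For ENST00000602361 there were 2, ENST00000582965 (278 nt) and ENST00000439232 (272 nt). ENST00000610674, ENST00000463397 and ENST00000471086 had 29, 39 and 35. Some named members were alike too, with r of 0.996 for ENST00000610674 and ENST00000490232, and 0.9996 for ENSMUST00000175064 and ENSMUST00000174924. Whether such named members are separate RNAs could not be looked up. Among the 61 other mES members, 11 reached that r with ENSMUST00000083936, 4 with ENSMUST00000174924 and 4 with ENSMUST00000083103, and none with ENSMUST00000157463 or ENSMUST00000175096. These r values rest on 6 files that share a cell line, and are descriptions.

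Some transcripts look like copies of each other. ENST00000490232, ENST00000635274, ENST00000581458 and ENST00000584058 are linked, directly or through others, by stretches of 60 nt with the same pattern of zero and non-zero scores in a file. So are ENSMUST00000083936 and 4 transcripts of 216 nt (ENSMUST00000093738, ENSMUST00000183812, ENSMUST00000196353 and ENSMUST00000199460). ENST00000365328 is linked by such stretches, directly or through others, to a group of 81 transcripts, 9 of them members, and ENSMUST00000083103 to one of 184 transcripts, 8 of them members. Abundance and scores within such groups, those 2 transcripts included, are uncertain, since the authors' counting could split reads between near-identical copies. ENST00000635274 had an abundance of 16979.7 in chromatin in vivo and 1831 in vitro, close to ENST00000490232 in each file. The 4 mES transcripts of 216 nt had between 42929.5 and 43033 in chromatin in vivo and between 60679 and 60753 in vitro.

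The ratio of abundance between compartments asks where the transcripts were enriched. Ratios are log2 values after 1 was added to each abundance, for members listed in both files, and 4-fold (2 on the log2 scale) was the threshold for calling a member. The files come from bulk samples, so fewer cells with a transcript and less of it per cell cannot be told apart. In HEK293 in vivo, the median of chromatin over nucleoplasm was 0.50 for 270 members and -0.17 for all 2716 transcripts. Higher by at least 4-fold were 56 members (20.7%), against 21.6% of all transcripts, and lower were 0, against 0.295%. For chromatin over cytoplasm the medians were -0.58 for 260 members and -1.45 for all 2138 transcripts. Here 11 members (4.23%) were higher by 4-fold, against 8.14% of all, and 42 (16.2%) were lower, against 38.3%. Fewer of the members than of all transcripts thus lay far to either side in chromatin against cytoplasm.

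For nucleoplasm over cytoplasm in HEK293 in vivo, the medians were -1.63 for 329 members and -1.61 for all 3043 transcripts, nearly equal. There, 2 members were higher by 4-fold, against 1.18% of all, and 51 (15.5%) were lower, against 18.8%. Single members reached much larger chromatin ratios. ENST00000391141 (just under 250 nt) had an abundance of 510 in chromatin and 3.05 in nucleoplasm, a log2 ratio of 6.98. ENST00000362899 (217 nt) had 359 in chromatin, 9.63 in nucleoplasm and 11.1 in cytoplasm, with ratios of 5.08 over nucleoplasm and 4.90 over cytoplasm. ENST00000439232 (272 nt) had 1047 in chromatin and 25.97 in cytoplasm, a ratio of 5.28. On the other side, ENST00000614247 (312 nt) had 26.1 in chromatin and 468 in cytoplasm, a ratio of -4.11.

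In the HEK293 in vitro files the chromatin ratios of the members lay below those of all transcripts. Their median of chromatin over nucleoplasm was -1.20 (n = 257), against 0.88 for all 3975 transcripts. Higher by 4-fold were 43 members (16.7%), against 22% of all, and lower were 63 (24.5%), against 4.86%. Chromatin over cytoplasm had a median of -1.57 for 195 members and -0.42 for all 2558 transcripts, with 16 members (8.21%) higher by 4-fold, against 15.1% of all, and 81 (41.5%) lower, against 22.9%. In nucleoplasm over cytoplasm the medians were -1.15 (n = 550) and -1.17 (n = 10662), and 10 members were higher by 4-fold, against 0.722% of all, and 9 were lower, against 2.64%. ENST00000390930 (237 nt) had the largest chromatin values relative to the other fractions, 1607 in chromatin, 19.6 in nucleoplasm and 17.3 in cytoplasm, with ratios of 6.28 and 6.46. ENST00000464472 (303 nt) had 11.9 in chromatin, 134 in nucleoplasm and 460 in cytoplasm, with ratios of -3.38 and -5.16.

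In mES cells the chromatin medians of the members lay closer to those of all transcripts than in HEK293. In vivo, chromatin over nucleoplasm was -0.76 for 209 members and -0.77 for all 8533 transcripts, with 19 members (9.09%) higher by 4-fold, against 3.89%, and 4 lower, against 2.85%. Chromatin over cytoplasm was -1.52 for 183 members and -1.25 for all 6395 transcripts, with 27 members (14.8%) higher, against 7.29%, and 73 (39.9%) lower, against 27.2%. Nucleoplasm over cytoplasm was -0.97 for 328 members and -0.56 for all 8955 transcripts, with 21 (6.40%) higher, against 2.99%, and 5 (1.52%) lower, against 0.447%. Members were thus called in both directions more often than all transcripts were in the last 2 comparisons.

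The in vitro mES files did not all go this way. In chromatin over cytoplasm, members were called less often than all transcripts in both directions. The median of chromatin over nucleoplasm was -0.27 for 107 members and -0.32 for all 2747 transcripts, and 17 members (15.9%) were higher by 4-fold, against 12.1%, and 19 (17.8%) lower, against 12.9%. Chromatin over cytoplasm was -1.20 for 62 members and -1.34 for all 1495 transcripts, with 13 (21.0%) higher, against 22.4%, and 18 (29.03%) lower, against 36.9%. Nucleoplasm over cytoplasm was -1.03 for 251 members and -0.88 for all 5894 transcripts, with 15 (5.98%) higher, against 5.87%, and 3 (1.20%) lower, against 0.407%. Among members with an abundance of at least 100 in both files, a setting chosen after the values were seen, the HEK293 median of chromatin over nucleoplasm in vivo was 0.016 (n = 50). With that setting 3 of the 6 mES medians were above 0, at 1.58 (n = 36) for chromatin over nucleoplasm and 2.02 (n = 24) for chromatin over cytoplasm in vivo and 0.34 (n = 37) for nucleoplasm over cytoplasm in vitro. The 24 include ENSMUST00000083936 and the transcripts linked to it by score pattern, with 418 to 436 in cytoplasm in vivo. They also include ENSMUST00000183609 and ENSMUST00000199928, alike to it in abundance, with ratios of 7.10 and 7.03. What these look-alike members contribute to the medians was not tested.

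In mES cells many of the high chromatin ratios under 250 nt belonged to transcripts alike in score pattern or in abundance. In that class, 15 of 36 members were higher in chromatin than in cytoplasm by 4-fold in vivo and 11 of 16 in vitro, with medians of -0.000977 and 7.77. Of all transcripts, 7.29% were higher in vivo and 22.4% in vitro. Both counts hold ENSMUST00000083936, the 4 transcripts linked to it by score pattern, and ENSMUST00000199928, ENSMUST00000183609 and ENSMUST00000197298, the 3 members most like it in abundance across the 6 files, which makes 8. Without these 8, a setting chosen after the values were seen, 7 of 28 were higher in vivo and 3 of 8 in vitro, with medians of -1.16 and -0.25. The 3 alike members were picked by abundance in these same files. Leaving them out thus lowers the ratios by construction, and no conclusion is drawn from it. With 1 transcript per family the counts were 11 of 32 and 7 of 12, with medians of -0.82 and 7.01. In the class of 300 nt or more, 8 of 104 were higher and 44 lower in vivo (median -1.60), and 0 of 34 were higher and 14 lower in vitro (median -1.63). Of all transcripts, 27.2% were lower in vivo and 36.9% in vitro. The class of 250 to under 300 nt lay with the longer one, at -1.69 (n = 43) in vivo and -1.58 (n = 12) in vitro. ENSMUST00000082446 (203 nt) had an in vivo abundance of 3469 for chromatin, 282 for nucleoplasm and 21.1 for cytoplasm, with ratios of 3.62 over nucleoplasm and 7.29 over cytoplasm. ENSMUST00000083936 had a ratio of 8.33 for chromatin over cytoplasm in vitro, the largest among the members. ENSMUST00000196997 (241 nt) went the other way, with an in vivo abundance of 78.8 for chromatin, 410 for nucleoplasm and 1261 for cytoplasm, and ratios of -2.37 over nucleoplasm and -3.98 over cytoplasm.

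HEK293 members also differed by length class. For chromatin over nucleoplasm in vivo, members of 250 to under 300 nt had a median of 1.48 (n = 130), shorter ones -0.32 (n = 24) and longer ones -0.55 (n = 116). In vitro the medians of the same ratio were -1.27 (n = 112) for this class, 1.87 (n = 30) for the shorter and -1.34 (n = 115) for the longer members. The median of this ratio was thus above 0 in the shortest class in vitro and in the middle class in vivo. Members alike in abundance were counted apart here. For ENST00000463397 (275 nt), 39 of 160 other members of any class had an r of at least 0.95. Its chromatin and nucleoplasm values were 4160 and 1244 in vivo, and 223 and 1388 in vitro. How far such look-alike members set the medians of the classes was not tested. By counts, 8 of 24 members under 250 nt were higher by 4-fold in vivo, against 36 of 130 and 12 of 116 in the longer classes, and over cytoplasm 4 of 20, against 5 of 135 and 2 of 105. Of all transcripts, 21.6% were higher over nucleoplasm and 8.14% over cytoplasm. Over cytoplasm in vitro, members of 250 to under 300 nt had the lowest median, -2.77 (n = 85), and 50 of them were lower by 4-fold, against 22.9% of all transcripts.

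**Figure D2:**
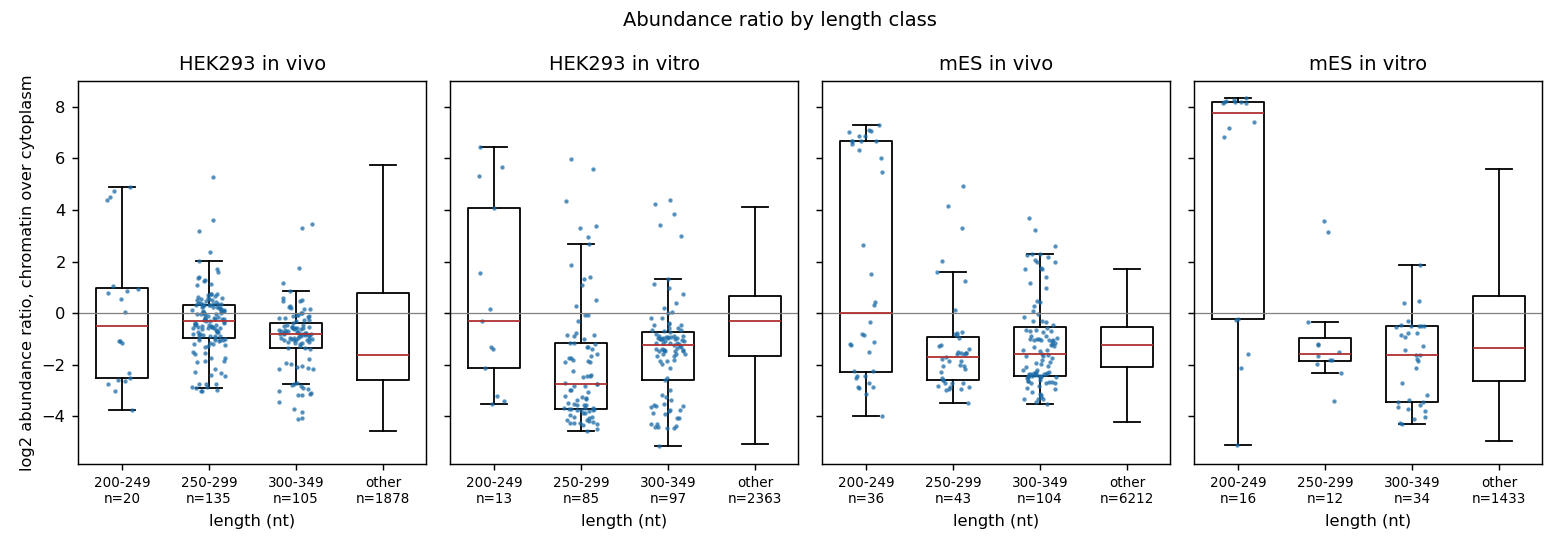
Log2 ratio of abundance, chromatin over cytoplasm, for members in 3 classes of length, left of all other transcripts; points are single members, boxes give quartiles and median, and whiskers reach at most 1.5 times the quartile range. The mES members under 250 nt reach 7.29 in vivo and have a median of 7.77 in vitro.

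Transcripts just outside the length limits are given for comparison. Those of 190 to 199 nt had a median chromatin over cytoplasm ratio of 0.82 (n = 35) in HEK293 and 3.58 (n = 18) in mES cells in vivo, and those of 200 to 209 nt had 0.99 (n = 6) and 0.32 (n = 9). At the upper limit, transcripts of 340 to under 350 nt had -0.80 (n = 17) and -1.78 (n = 34), and those of 350 to 359 nt had -2.84 (n = 10) and -2.07 (n = 31).

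Abundance also differed between the in vivo and in vitro files of a compartment. In HEK293 chromatin, 55 members (18.4% of those in both files) were at least 4-fold higher in vivo, against 3.24% of all transcripts, and 0 were lower, against 0.0321%. By class these were 1 of 41 members under 250 nt, 39 of 140 of 250 to under 300 nt and 15 of 118 of 300 nt or more. Look-alike transcripts are counted apart here and below. The 55 include ENST00000490232 (17614 in vivo, 1773 in vitro) and ENST00000635274 (16979.7 and 1831), linked by score pattern. They also include ENST00000463397 (4160 and 223) and ENST00000467883 (3320 and 193), with an r of 0.997 in abundance. Whether the members called are separate RNAs could not be looked up. In mES chromatin, 9 of 128 members (7.03%) were higher by 4-fold, against 0.982%, and 0 were lower, against 0.823%, and all 9 had 300 nt or more. In the other fractions few members were called: 0 of 397 higher and 1 lower in HEK293 nucleoplasm, against 0.0372% and 0.149% of all, and 4 of 370 higher and 0 lower in HEK293 cytoplasm, against 2.5% and 0%. No mES nucleoplasm (n = 296) or cytoplasm (n = 286) member was called in either direction, where 0% and 0.307% of all transcripts were higher and 0.0928% and 0.0323% were lower. Most of the members called here were thus in chromatin.

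How reactive a transcript was in the cell can be set beside how reactive it was after refolding on its own. In HEK293, fewer than 50% of members had a higher mean score in vivo, with an interval that reached past 50% in the cytoplasm. The percent was 41.3 (33.1 to 49.8; n = 143) for chromatin, 39.1 (31.9 to 46.7; n = 179) for nucleoplasm and 44.4 (37.3 to 51.6; n = 196) for cytoplasm. For all transcripts it was 37.3, 37.7 and 28.5, so members and all transcripts differed most in the cytoplasm. The median differences of the members, in vivo minus in vitro, were -0.0103, -0.0087 and -0.00459, against -0.0184, -0.0141 and -0.0237 for all transcripts. Differences of at least 0.05 in the mean were used to call a member. In HEK293 chromatin 9 members (6.29%) were higher, against 10.4% of all transcripts, and 22 (15.4%) were lower, against 29.6%. In nucleoplasm 13 (7.26%) were higher, against 12.1%, and 27 (15.1%) lower, against 20.9%, and in cytoplasm 19 (9.69%) were higher, against 8.32%, and 27 (13.8%) lower, against 23.6%.

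In mES cells the fractions differed in direction. Members with a higher mean score in vivo made up 61.8% (50.9 to 71.9; n = 89) for chromatin, 47.5% (40.9 to 54.0; n = 236) for nucleoplasm and 66.0% (59.6 to 71.9; n = 241) for cytoplasm, against 64.9, 64.2 and 86.5 for all transcripts. Median differences of the members were 0.00866, -0.00292 and 0.0132, against 0.0231, 0.00798 and 0.0377. In chromatin 23 members (25.8%) were higher by at least 0.05, against 31.9% of all, and 9 (10.1%) lower, against 13.5%. In nucleoplasm 27 (11.4%) were higher, against 10.4%, and 18 (7.63%) lower, against 2.1%. In cytoplasm 38 (15.8%) were higher, against 30.7%, and 17 (7.05%) lower, against 1.9%. Fewer of the mES members than of all transcripts were higher in vivo in the cytoplasm, and more were lower in the nucleoplasm and cytoplasm.

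These shares depended on how scores were treated. With scores replaced by their rank within the file, the percent of members higher in vivo was 76.5 in HEK293 nucleoplasm and 82.7 in HEK293 cytoplasm, and 21.3 in mES chromatin and 25.7 in mES cytoplasm, on the other side of an even split in each. Over nucleotides scored in all 6 files, HEK293 chromatin turned to 57.4 and mES cytoplasm to 41.0. Over nucleotides above 0 in both files, HEK293 nucleoplasm was at 50.3, mES nucleoplasm at 52.04 and mES cytoplasm at 46.6. With an abundance of at least 100, HEK293 cytoplasm was at 52.6 and mES chromatin at 42.9, and among completely scored members mES cytoplasm was at 31.3. Zero scores also differed between the files: among members they made up 42.8%, 42.6% and 43.6% of scored nucleotides in the HEK293 fractions in vivo, against 30.2%, 33.0% and 37.5% in vitro, and 30.4%, 37.6% and 31.1% in mES in vivo, against 39.3%, 38.1% and 42.9% in vitro. Their part in these results was not tested.

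**Figure D3:**
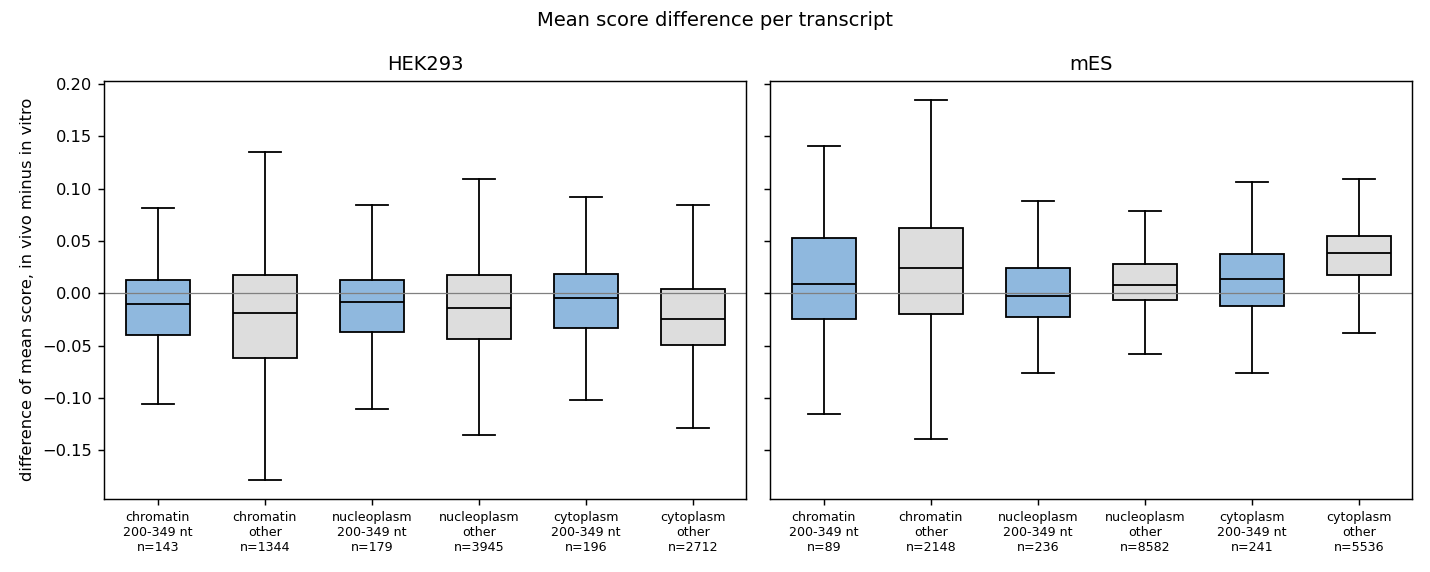
Difference of mean score, in vivo minus in vitro, per transcript with at least 80 shared nucleotides, for members (blue) left of transcripts of other lengths (grey) in each compartment; boxes give quartiles and median, whiskers at most 1.5 times the quartile range. The median of the mES members in cytoplasm is 0.0132, and all boxes of members span 0.

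The largest single differences lay on both sides. In HEK293 chromatin, ENST00000467883 (305 nt) had a mean of 0.214 in vivo, against 0.0707 in vitro, across its 109 shared nucleotides, the largest difference upward, 0.143. Its abundance was 3320 in vivo and 193 in vitro. It is in the group of 81 transcripts that holds ENST00000365328, so its scores are uncertain. In HEK293 nucleoplasm, ENST00000582463 (239 nt) had 0.277 in vivo and 0.113 in vitro, and ENST00000445874 (261 nt) had 0.138 in vivo and 0.287 in vitro, with an abundance of 10.6 and 16.5. In HEK293 cytoplasm, ENST00000532120 (223 nt) had 0.213 in vivo and 0.364 in vitro. Of these, ENST00000582463, ENST00000445874 and ENST00000532120 had an abundance under 100 in both files. In mES nucleoplasm, ENSMUST00000153068 (234 nt) had 0.318 in vivo and 0.129 in vitro. In mES chromatin, ENSMUST00000136849 (322 nt) had 0.259 in vivo and 0.118 in vitro, and ENSMUST00000196196 (279 nt) had 0.0149 in vivo and 0.130 in vitro. These 3 mES members also had an abundance under 100 in both files. In mES cytoplasm, ENSMUST00000141807 (338 nt), with an abundance of 285 in vivo and 246 in vitro, had 0.254 in vivo and 0.147 in vitro over 302 nucleotides.

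The most completely scored members could be compared in every file. Scored at each scorable nucleotide (all but the first 6 and last 30) in all 6 files were 9 HEK293 and 16 mES members, a choice made after the values were seen. Among the HEK293 ones, the mean score was lower in vivo in 8 of 9 in chromatin, 9 of 9 in nucleoplasm and 9 of 9 in cytoplasm. Among transcripts of other lengths scored as completely, 38, 42 and 63 of 65 were lower. The median differences of the 9 were -0.0505, -0.0563 and -0.0814, and with ranks 8, 6 and 8 of 9 were lower. The 9 hold the look-alike transcripts ENST00000490232 and ENST00000635274. With 1 HEK293 transcript per family, 7, 8 and 8 of 8 were lower, and with ranks 7, 5 and 7 of 8. Zero scores were more frequent in vivo in 8, 9 and 8 of the 9. In mES cells 6, 14 and 11 of the 16 were lower in vivo in chromatin, nucleoplasm and cytoplasm, against 50, 72 and 45 of 92 transcripts of other lengths, and with ranks 13 of 16 were lower in each compartment. The 16 hold look-alike transcripts. With 1 transcript per family, 5, 9 and 6 of 11 were lower, and with ranks 8 of 11 in each compartment. The median differences were then 0.00357, -0.0195 and -0.00152, against 0.0329, -0.0306 and -0.0178 for the 16.

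ENST00000490232 had a mean score of 0.110, 0.153 and 0.146 in chromatin, nucleoplasm and cytoplasm in vivo, against 0.216, 0.209 and 0.248 in vitro. The in vivo values all lay below the in vitro ones. Its zero scores made up 38.3%, 38.3% and 41.3% of nucleotides in vivo, against 10.98%, 17.8% and 13.6% in vitro. ENST00000602361 had 0.148, 0.168 and 0.158 in vivo, against 0.198, 0.225 and 0.240 in vitro, again with no overlap. ENST00000365328 had 0.213, 0.186 and 0.153 in vivo, against 0.195, 0.200 and 0.213 in vitro, so its values overlapped and chromatin was the one compartment that was higher in vivo. ENST00000361335 (297 nt) had the highest scores of the 9, 0.246, 0.277 and 0.262 in vivo, against 0.283, 0.309 and 0.275 in vitro.

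In mES cells ENSMUST00000157463 differed most among the 16 in nucleoplasm. Its mean score was 0.118, 0.115 and 0.115 in vivo, against 0.213, 0.225 and 0.206 in vitro. ENSMUST00000174924 had 0.135, 0.110 and 0.112 in vivo, against 0.185, 0.183 and 0.182 in vitro. Both were lower in vivo in every compartment with no overlap. ENSMUST00000083103 had 0.183, 0.155 and 0.193 in vivo, against 0.180, 0.165 and 0.179 in vitro, and ENSMUST00000083936 had 0.135, 0.125 and 0.122 in vivo, against 0.149, 0.145 and 0.123 in vitro. The mean of ENSMUST00000083103 hardly differed between the kinds of probing. The 4 transcripts of 216 nt that look like ENSMUST00000083936 had between 0.203 and 0.206 in chromatin in vivo, against 0.145 to 0.146 in vitro. In chromatin they were thus higher in vivo and ENSMUST00000083936 was lower, while in nucleoplasm all 5 were lower in vivo, where the 4 had 0.109 to 0.110 in vivo and 0.139 to 0.141 in vitro. ENSMUST00000084013 (297 nt) and ENSMUST00000088336 (294 nt) were higher in vivo in all 3 compartments. ENSMUST00000084013 had 0.326, 0.288 and 0.320 in vivo, against 0.235, 0.249 and 0.227 in vitro.

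**Figure D4:**
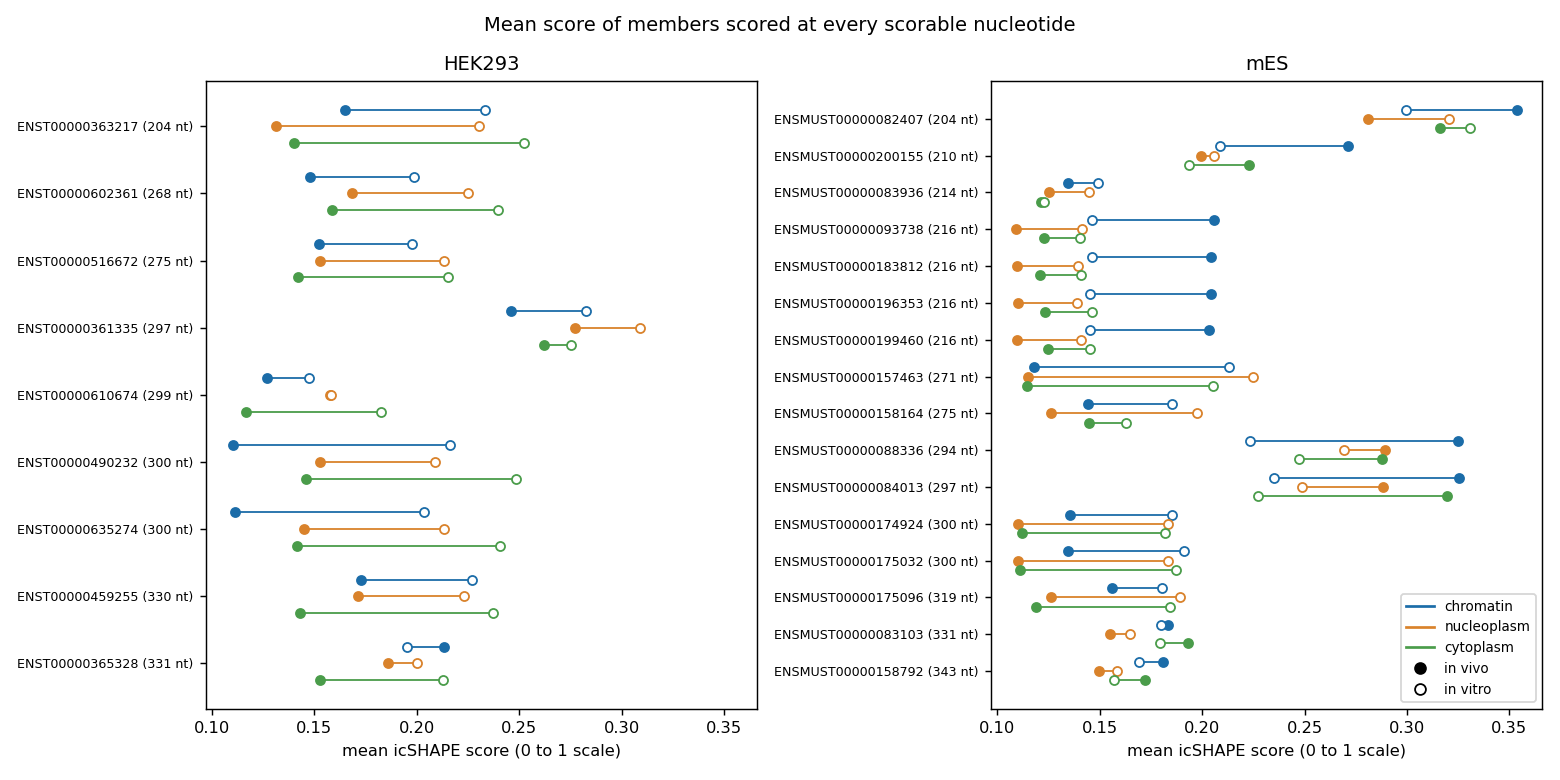
Mean score of the 9 HEK293 and 16 mES members scored at every scorable nucleotide in all 6 files, filled circles in vivo and open circles in vitro, with colour giving the compartment. In HEK293 all 9 members are lower in vivo in nucleoplasm and cytoplasm, while in mES chromatin 6 of 16 are.

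A stricter view takes members that differed by at least 0.05 in every compartment. Of 49 HEK293 members with enough nucleotides in all 6 files, 6 (12.2%) were lower in vivo in all 3 compartments, against 8.28% of all transcripts, and 0 were higher, against 1.97%. They were ENST00000363217 (204 nt), ENST00000459155 (270 nt), ENST00000459255 (330 nt), ENST00000490232, ENST00000602361 and ENST00000635274, of which ENST00000490232 and ENST00000635274 share their pattern of zero scores. ENST00000363217 had 0.165, 0.131 and 0.140 in vivo, against 0.233, 0.230 and 0.252 in vitro. Its abundance was 4150, 437 and 153 in vivo and 3627, 248 and 69.4 in vitro, highest in chromatin. In mES cells 2 of 43 (4.65%) were lower in all 3, against 1.18% of all, and 1 (2.33%) was higher, against 0.815%. The lower ones were ENSMUST00000157463 and ENSMUST00000175032 (300 nt), the latter linked to ENSMUST00000174924 by such stretches. The higher one was ENSMUST00000146897 (268 nt), with 0.270, 0.205 and 0.172 in vivo, against 0.151, 0.117 and 0.111 in vitro, at abundances of 26.7 to 143.

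The differences were also followed along the members. Means were taken in windows of 20 nt with at least 15 scored nucleotides in each of the 6 files, and the windows named below were picked for their size after the values were seen. In ENST00000490232, 8 of 12 windows were lower in vivo in all 3 compartments and 0 were higher. Nucleotides 21 to 40 had 0.0596, 0.0585 and 0.0476 in chromatin, nucleoplasm and cytoplasm in vivo, against 0.232, 0.297 and 0.408 in vitro, and in the cytoplasm this was the most reactive of the 12 windows in vitro. Nucleotides 141 to 160 had 0.0086, 0.0280 and 0.0267 in vivo, against 0.169, 0.161 and 0.190 in vitro. Not all of the transcript followed: nucleotides 101 to 120 had 0.245, 0.266 and 0.248 in vivo and 0.264, 0.234 and 0.212 in vitro.

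ENST00000365328 had a window that went the other way. Its nucleotides 281 to 300 had 0.338, 0.322 and 0.554 in vivo, against 0.0885, 0.0921 and 0.146 in vitro. The differences were 0.249, 0.229 and 0.407, so this stretch was more reactive in the cell in each compartment. Of its 14 windows, 2 were higher and 7 lower in vivo in all 3 compartments. Nucleotides 141 to 160 had the largest mean difference downward, with 0.115, 0.0665 and 0.0340 in vivo, against 0.165, 0.222 and 0.140 in vitro. The window most reactive over the 6 files was 221 to 240, with a mean of 0.458, and the least reactive was 21 to 40, with 0.0483.

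In mES cells, ENSMUST00000083103 also had its largest upward difference in vivo at nucleotides 281 to 300. The window had 0.267, 0.345 and 0.441 in vivo, against 0.0593, 0.0735 and 0.0793 in vitro, with differences of 0.207, 0.272 and 0.362. ENSMUST00000083103 and ENST00000365328 have the same length, but whether they are the same kind of RNA could not be looked up. Of its 14 windows, 4 were higher and 5 lower in vivo in all 3 compartments. ENSMUST00000157463 had 8 of 11 windows lower in all 3. Its nucleotides 81 to 100 had 0.0127, 0.0029 and 0.0084 in vivo, against 0.267, 0.266 and 0.201 in vitro. Its nucleotides 121 to 140 stayed reactive, with 0.483, 0.428 and 0.386 in vivo and 0.438, 0.415 and 0.377 in vitro.

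ENSMUST00000174924 had 9 of 12 windows lower in vivo in all 3 compartments and 2 higher. Its nucleotides 121 to 140 had 0.0689, 0.109 and 0.0532 in vivo, against 0.247, 0.287 and 0.265 in vitro. Nucleotides 41 to 60 were higher in vivo, with 0.241, 0.156 and 0.203, against 0.101, 0.0835 and 0.0597 in vitro. ENST00000459255 had the largest difference among the 25 members whose windows were followed. Its nucleotides 101 to 120 had 0.193, 0.177 and 0.182 in vivo, against 0.522, 0.490 and 0.614 in vitro, while nucleotides 161 to 180 were higher in vivo in all 3, with 0.444, 0.403 and 0.418, against 0.310, 0.303 and 0.202.

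**Figure D5:**
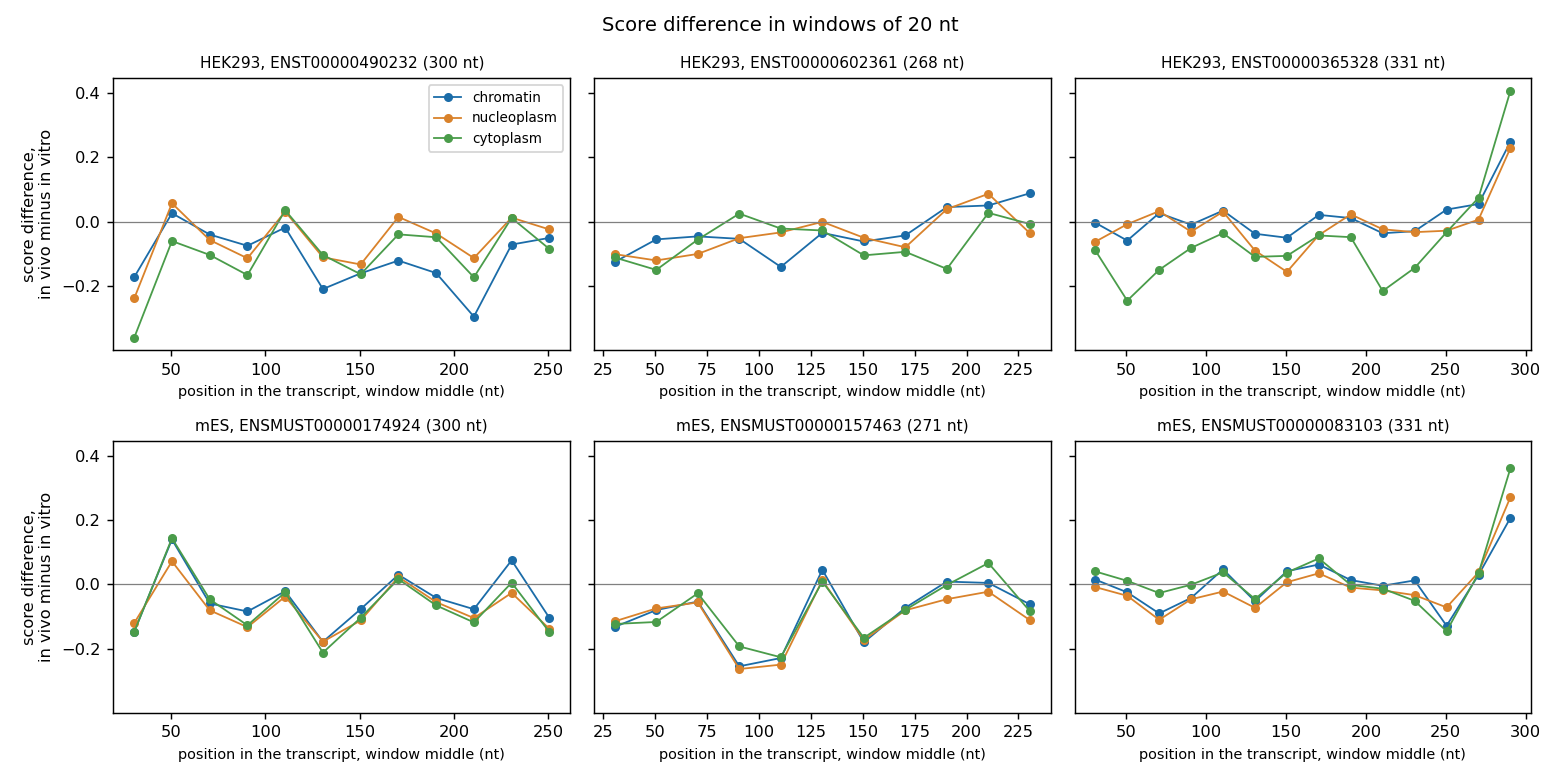
Score difference, in vivo minus in vitro, in windows of 20 nt along 3 HEK293 (top) and 3 mES (bottom) members, placed at the middle of the window, 1 line per compartment. Nucleotides 281 to 300 reach 0.407 in ENST00000365328 and 0.362 in ENSMUST00000083103 in the cytoplasm, and nucleotides 21 to 40 of ENST00000490232 lie at -0.361.

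Mean scores were also compared between compartments. In HEK293 in vivo, the percent with a higher mean in the first compartment was 53.6 (39.7 to 67.0; n = 56) for chromatin minus nucleoplasm, 54.2 (39.2 to 68.6; n = 48) for chromatin minus cytoplasm and 60.4 (51.9 to 68.5; n = 144) for nucleoplasm minus cytoplasm. For all transcripts the values were 50.9, 56.1 and 59.0, and the median differences of the members were 0.00114, 0.00143 and 0.00618. Higher by 0.05 were 4 members (7.14%), 6 (12.5%) and 6 (4.17%), against 14.1%, 18.9% and 8.05% of all, and lower were 1 (1.79%), 1 (2.08%) and 4 (2.78%), against 18.8%, 13.9% and 5.77%. In these comparisons the shares of members past 0.05 lay below those of all transcripts, a difference that was not tested. In vitro the percent was 34.5 (22.5 to 48.1; n = 58), 39.6 (25.8 to 54.7; n = 48) and 48.4 (41.2 to 55.7; n = 192), against 20.1, 31.5 and 45.0 for all transcripts. In vitro, 3 (5.17%), 5 (10.4%) and 16 (8.33%) members were higher by 0.05, against 3.53%, 8.87% and 9.22% of all, and 7 (12.1%), 8 (16.7%) and 20 (10.4%) were lower, against 38.1%, 33.6% and 11.7%.

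In mES cells in vivo, most members had a higher mean score in chromatin. The percent higher was 76.5 (64.6 to 85.9; n = 68) for chromatin minus nucleoplasm, 75.6 (60.5 to 87.1; n = 45) for chromatin minus cytoplasm and 32.1 (25.8 to 38.9; n = 209) for nucleoplasm minus cytoplasm, against 75.03, 61.6 and 29.7 for all transcripts. Median differences were 0.0240, 0.0233 and -0.0126. Members higher by 0.05 numbered 16 (23.5%), 9 (20%) and 15 (7.18%), against 33.8%, 27% and 5.23% of all, and members lower numbered 1 (1.47%), 1 (2.22%) and 17 (8.13%), against 7.84%, 15.8% and 8.03%. In vitro the percent higher was 44.9 (32.9 to 57.4; n = 69), 48.7 (32.4 to 65.2; n = 39) and 53.5 (46.1 to 60.9; n = 185), against 29.4, 48.4 and 65.9 for all transcripts. In vitro, 1 (1.45%), 0 and 6 (3.24%) members were higher by 0.05, against 1.29%, 4.41% and 3.19% of all, and 5 (7.25%), 0 and 10 (5.41%) were lower, against 8.1%, 7.72% and 4.78%.

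With ranks the percent crossed an even split in 7 of these 12 comparisons. In HEK293 it was 40.3 for nucleoplasm minus cytoplasm in vivo, and 93.1 and 79.2 for chromatin minus nucleoplasm and minus cytoplasm in vitro. In mES cells it was 38.2 and 46.7 for chromatin minus nucleoplasm and minus cytoplasm in vivo, and 65.2 for chromatin minus nucleoplasm and 10.3 for nucleoplasm minus cytoplasm in vitro. Among single members, ENSMUST00000136849 had 0.297 in chromatin and 0.0946 in cytoplasm in mES in vivo, a difference of 0.203, over 171 nucleotides. ENST00000365188 had 0.178 in chromatin and 0.0950 in nucleoplasm in HEK293 in vivo, the largest difference upward in that comparison.

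Profiles along the members were alike between files of the same kind. The median Pearson r across nucleotides of a member was between 0.818 and 0.912 for the 3 pairs of compartments in HEK293 in vivo and between 0.773 and 0.925 in vitro, and between 0.856 and 0.884 in mES in vivo and between 0.838 and 0.910 in vitro. Between in vivo and in vitro files of a compartment it was lower, at 0.710 (chromatin), 0.722 (nucleoplasm) and 0.596 (cytoplasm) in HEK293, and at 0.586, 0.686 and 0.722 in mES cells. In every pair of files the median of the members was above that of all transcripts, which lay between 0.530 and 0.782. These r values are descriptions across nucleotides, which are not replicates, and the parts of depth and shared reads in them were not tested.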

How the data were processed

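From 22 samples, 12 deposited icSHAPE files were used, each a group of its own; the 6 solvent-control samples enter the scores, and the irCLIP site lists were not used here. Each deposited file gives 1 transcript per line with its length, a signal for its abundance (the sources used here name no unit), and 1 icSHAPE score from 0 to 1, or a missing value, for each nucleotide. How the authors calculated the score is not given beyond its use of the DMSO, in vivo and in vitro samples, per the labels. The submitters' processing notes name Bowtie2, UMI-tools, hg38 and mm10, without roles or versions. Read depth per file is unknown. In the mES nucleoplasm in vivo file, 3 scores of 1 transcript, not a member, lay outside 0 to 1 and were set to missing.

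For each pair of files, transcripts sharing at least 80 scored nucleotides had their scores averaged over these, and abundance ratios as log2 after a pseudocount of 1. The scripts (Python 3.11.15, NumPy 2.4.6, SciPy 1.17.1, Matplotlib 3.10.9) were tested on simulated data. Members to be named were, per cell line, the 8 with the highest median abundance among those with at least 80 nucleotides scored in all 6 files (1 per family, a family sharing the places of zeros over 60 nt), and, per comparison, the 2 with the largest difference in each direction, not all of which are printed; further members named in the text were chosen after their values were seen. The members and lists were chosen with earlier results of these data known. Other settings were ranks, nucleotides above 0, nucleotides scored in all 6 files, at least 120 nucleotides, a pseudocount of 0.1, an abundance of at least 1, 1 transcript per family, complete scoring, an abundance of at least 100, and leaving out 8 similar mES members. The last 3 settings were chosen after the values were seen. The gene lists could not be applied, since no identifier had a gene name.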

Additional observations from a re-analysis of the deposited data

Results flagged for a closer look

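In chromatin, the percent of members with a higher mean score in vivo than in vitro was 41.3 in HEK293 and 61.8 in mES cells, on opposite sides of an even split. For nucleoplasm minus cytoplasm in vivo, the percent higher was 60.4 in HEK293 and 32.1 in mES cells, again on opposite sides. The opposition did not hold under every setting. In chromatin the values were 37.1 in HEK293 and 21.3 in mES cells with ranks, 57.4 and 66.7 over nucleotides scored in all 6 files, and 39.5 and 42.9 with an abundance of at least 100, each pair on 1 side. Over nucleotides above 0 they were 49.3 and 50. For nucleoplasm minus cytoplasm they were 40.3 in HEK293 and 43.5 in mES cells with ranks, also on 1 side. Both were picked because the cell lines pointed in opposite directions, and neither difference was tested. Cell line, kit and sequencer cannot be told apart.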

How the results depend on the processing

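No paired analysis was possible because each group held 1 file. A pseudocount of 0.1, 1 transcript per family and at least 120 shared nucleotides kept every comparison over all length classes on its side, and within its reported interval (percents) or within 0.25 (log2 medians). An abundance of at least 1 could change nothing, since the lowest abundance of a member in any file was 1.395. The family setting left out few members, with 263 of 270 kept for HEK293 chromatin over nucleoplasm in vivo. It cannot show what members alike in abundance but outside a family contribute. The settings below changed percents of members with a higher mean score. With ranks, in vivo minus in vitro was 76.5 in HEK293 nucleoplasm (reported as 39.1), 82.7 in HEK293 cytoplasm, 21.3 in mES chromatin and 25.7 in mES cytoplasm. Between compartments with ranks, HEK293 in vivo gave 75 for chromatin minus nucleoplasm and 40.3 for nucleoplasm minus cytoplasm, and HEK293 in vitro gave 93.1, 79.2 and 33.9 for chromatin minus nucleoplasm, chromatin minus cytoplasm and nucleoplasm minus cytoplasm. In mES cells these were 38.2, 46.7 and 43.5 in vivo and 65.2, 12.8 and 10.3 in vitro. Over nucleotides above 0 in both files, in vivo minus in vitro was 50.3 in HEK293 nucleoplasm, 50 in mES chromatin and 46.6 in mES cytoplasm, and mES chromatin minus cytoplasm in vivo was 58.8. Over nucleotides scored in all 6 files it was 57.4, 29.8 and 36.2 in HEK293 chromatin, nucleoplasm and cytoplasm, 35.9 and 41.0 in mES nucleoplasm and cytoplasm, and 87.2 for mES chromatin minus nucleoplasm in vivo.

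The next settings were chosen after the values were seen, and transcripts of the same family were counted apart. For the completely scored members, in vivo minus in vitro was 11.1 in HEK293 chromatin, 0 in HEK293 nucleoplasm and 0 in HEK293 cytoplasm, and 12.5 in mES nucleoplasm and 31.3 in mES cytoplasm. Chromatin minus nucleoplasm was 33.3 in HEK293 in vivo and 100 in mES in vivo, and 62.5 in mES in vitro. Nucleoplasm minus cytoplasm was 88.9 in HEK293 in vivo, 11.1 in HEK293 in vitro, 25 in mES in vivo and 62.5 in mES in vitro, and chromatin minus cytoplasm was 11.1 in HEK293 in vitro, 87.5 in mES in vivo and 75 in mES in vitro. With an abundance of at least 100, in vivo minus in vitro was 22.7 in HEK293 nucleoplasm, 52.6 in HEK293 cytoplasm, 42.9 in mES chromatin and 26.5 in mES nucleoplasm, and mES nucleoplasm minus cytoplasm was 25 in vivo and 65.7 in vitro. The median log2 abundance ratios then were 0.016, -0.35 and -1.46 in HEK293 for chromatin over nucleoplasm in vivo, nucleoplasm over cytoplasm in vivo and chromatin over nucleoplasm in vitro. In mES they were 1.58, 2.02 and -0.13 in vivo and -0.50 (chromatin over cytoplasm) and 0.34 (nucleoplasm over cytoplasm) in vitro. Without ENSMUST00000083936, its family and the 3 members most alike in abundance, the median ratio of chromatin over cytoplasm of mES members under 250 nt was -0.25 in vitro, against 7.77 with them. Those 3 were picked by abundance in these same files, so a lower median was built in. With 1 transcript per family it was 7.01. For ENSMUST00000082407 in mES chromatin, ranks gave a difference of -0.0133 where mean scores gave 0.0542. Leaving out a replicate was not possible with 1 file per group. The cause was not tested. Read depth behind each value is unknown, and 1 file per group leaves every difference without a replicate check.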
